A study of Mus musculus with 12 samples.

Results

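Poly(ADP-ribose) polymerases (PARPs) are enzymes that use NAD+ to place ADP-ribose on proteins or nucleic acids, and a subset of them is known to respond to interferon. The RNA-seq values of 9 genes, chosen by name from the 29428 genes measured, are described here. Of these, 7 are interferon-linked, namely Parp9, Parp10, Parp11, Parp12, Parp14, Dtx3l and Zc3hav1, and 2 are DNA-repair PARPs taken for contrast, Parp1 and Parp3. All 9 genes passed the filter on low values, which left 16127 genes for testing.

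The cells were immortalized mouse striatal lines cultured at 33 °C, STHdhQ7, labelled normal, with 7 glutamines encoded in huntingtin, and STHdhQ111, a model of Huntington's disease with 111 glutamines. Each line was left nontreated (Q7-C and Q111-C) or was treated with 100 ng/mL murine interferon gamma (IFNγ) and 5 μg/mL lipopolysaccharide (LPS) over 24 h, giving the groups Q7-T and Q111-T, with 3 libraries per group. The comparisons ask how each line responded to this inflammatory challenge and how the lines differed with and without it. Each genotype was 1 cell line, so line and genotype cannot be told apart, and IFNγ and LPS were given together, so their parts cannot be told apart either. The study calls the 3 libraries of a group biological replicates, but nothing says that they came from separate cultures, so p-values measure the spread between these libraries.

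Interferon gamma acts through the kinases JAK1 and JAK2, and interferon response factors bind the ISRE elements of many of the genes it induces. LPS acts through TLR4 and NF-κB. Among the interferon-linked genes, most of the active enzymes add single ADP-ribose units, whereas Parp1 builds long chains at DNA breaks.

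The genes were placed by the coordinates in the deposited table, on mouse genome build GRCm38. Of these, 3 lie together on chromosome 16, where Parp9 (ENSMUSG00000022906, chr16:35938470-35972605, plus strand) and Dtx3l (ENSMUSG00000049502, chr16:35926511-35939151, minus strand) are head to head and overlap by 682 bases. Parp14 (ENSMUSG00000034422, chr16:35832874-35871544, minus strand) begins 54966 bases beyond the far end of Dtx3l, with 2 annotated genes, Gm10237 and Gm41467, in between. On chromosome 6 lie Zc3hav1 (ENSMUSG00000029826, chr6:38305286-38354603, minus strand), Parp12 (ENSMUSG00000038507, chr6:39086410-39118349, minus strand), 731806 bases further on, and Parp11 (ENSMUSG00000037997, chr6:127446840-127494240, plus strand). The others are Parp10 (ENSMUSG00000063268, chr15:76231174-76243441, minus strand), Parp1 (ENSMUSG00000026496, chr1:180568924-180601254, plus strand) and Parp3 (ENSMUSG00000023249, chr9:106470322-106476949, minus strand).

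**Figure D1:**
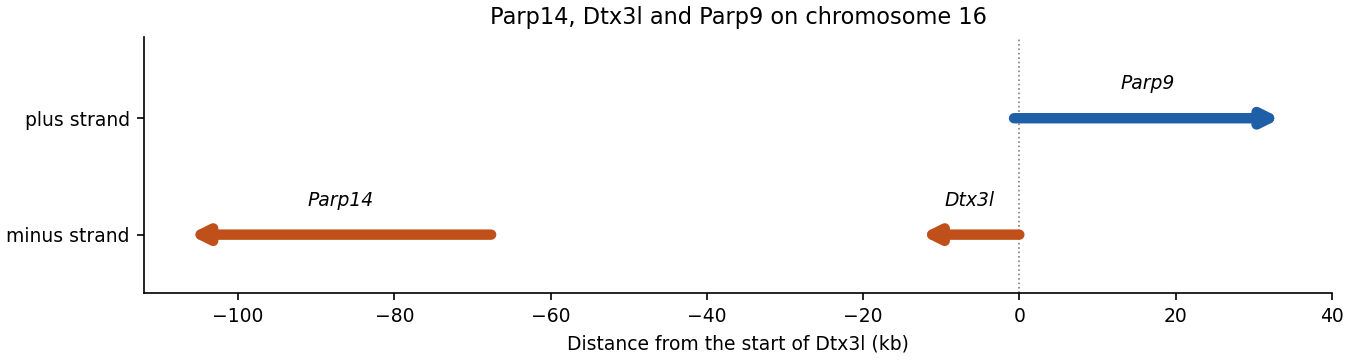
Map of Parp14, Dtx3l and Parp9 along chromosome 16, with the distance from the start of Dtx3l in kb on the x axis and the strand on the y axis. Arrows run from the start to the end of each gene; Dtx3l and Parp9 point away from each other and overlap by 682 bases at their starts.

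Promoter windows, from 250 bases before to 50 bases after an annotated start, were taken from RefSeq (build GRCm38.p6) and were found for 6 of the 9 genes, in 7 windows. Parp9, Parp10 and Parp14 had no window. Those of 2 genes are printed, 5′ to 3′ on the strand of the named gene. The Dtx3l window (chr16:35938978-35939277, minus strand) is shown because it holds the head-to-head starts of 2 of the genes. Its capitals mark the 141 bases from the start of Dtx3l in the deposited table to the start of a Parp9 transcript. Of the 7 annotated Parp9 transcripts, 4 start inside the window. The window was set on a RefSeq start of Dtx3l that lies further along the gene. It therefore reaches fewer than 250 bases before the start in the deposited table, and the motif search did not cover the rest. The Parp11 window (chr6:127446590-127446889, plus strand) is shown because, of the 7 windows, it was the only one with a match to any of the 3 motifs searched first, an ISRE-like, a GAS-like and an NF-κB-like motif; its matches are in capitals.
Dtx3l: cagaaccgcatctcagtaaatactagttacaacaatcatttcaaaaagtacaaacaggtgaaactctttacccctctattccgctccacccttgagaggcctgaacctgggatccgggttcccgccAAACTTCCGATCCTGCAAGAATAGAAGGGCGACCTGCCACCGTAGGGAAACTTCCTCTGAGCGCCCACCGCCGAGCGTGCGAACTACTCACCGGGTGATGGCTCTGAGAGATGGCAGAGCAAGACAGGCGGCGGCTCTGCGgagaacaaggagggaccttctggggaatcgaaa
Parp11: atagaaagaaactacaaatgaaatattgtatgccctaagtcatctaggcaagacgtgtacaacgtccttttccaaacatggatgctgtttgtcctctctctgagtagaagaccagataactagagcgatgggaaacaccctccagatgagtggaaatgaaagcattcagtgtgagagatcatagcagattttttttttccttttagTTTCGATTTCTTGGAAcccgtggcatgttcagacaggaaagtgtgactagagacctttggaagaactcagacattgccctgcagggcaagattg
The motifs searched, on both strands, were an ISRE-like motif (GAAANNGAAA), a motif like the gamma-activated sequence, GAS (TTCNNNGAA), and an NF-κB-like motif (GGGANTTTCC). In the Parp11 window the ISRE-like match lies on the minus strand, 44 to 35 bases before the start, and overlaps the GAS-like match at 37 to 29 bases before it. Of all 32851 windows of this length in the table, 3.44% held the ISRE-like motif, 8.30% the GAS-like motif and 0.411% the NF-κB-like motif. No match was found in the other 6 windows, those of Parp12, Zc3hav1, Dtx3l, Parp1, Parp3 and the second Parp11 window. A shorter interferon response factor core (AANNGAAA), chosen after the windows had been read, matched in 23.9% of all windows, in the first Parp11 window and at the last 8 bases of the Dtx3l window. The Dtx3l window holds 17 CpG dinucleotides and 54.3% G and C, the Parp11 window 5 and 42.0%, and the median of all windows was 7 and 52.7%. A match is a description of letters and not a measured site.

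The libraries held 57505990 to 96417834 estimated counts. The smallest count of any of the 9 genes was 70, for Parp14 in a Q7-C library, so each of them was detected in each library. In 11 of the 12 libraries the nearest other library, by distance of log2(TPM + 0.5), was of the same group; the nearest library to Q7-T replicate 2 was Q7-C replicate 1. The 25% of genes with the longest transcripts (at least 4358 bases) lay low in Q7-T replicate 2, by a median of 1.04 on the log2 scale below the other libraries of its group, whereas the 25% with the shortest transcripts (at most 1462 bases) differed by 0.0084. The corresponding values for the longest transcripts were -0.80 in Q7-C replicate 1 and -0.49 in Q111-T replicate 2. All 9 genes were below the mean of the other libraries of the group in each of these 3 libraries, and also in Q111-C replicate 1, where the longest transcripts deviated by -0.12. Of the 9 genes, only Parp14 (7417 bases), Dtx3l (5309) and Zc3hav1 (4944) have a longest transcript of at least 4358 bases. Their part in the results was not tested, and values without the 3 libraries are given beside the calls of the 9 genes that they change. The cells are labelled a striatal neuronal line, but the neuronal markers Snap25 and Syt1 did not exceed 0.025 TPM in any library and, of the 2 markers of medium spiny striatal neurons that had a row, Bcl11b did not exceed 0.041 TPM and Ppp1r1b ran from 0 to 0.385 TPM in STHdhQ7 and 0.267 to 1.31 TPM in STHdhQ111 libraries, while, of the mesenchymal markers, Vim was at 1147 to 2651 TPM and Thy1 at no more than 0.157 TPM, with 0 in all STHdhQ111 libraries. Of 5 neuronal markers, 4 had a row and 2 reached 0.5 TPM, Map2 and Tubb3, and the summed level was 22.2 to 27.5 TPM without and 58.5 to 86.3 TPM with treatment in STHdhQ7 cells, and 8.71 to 11 and 28.9 to 32.4 TPM in STHdhQ111 cells. Tubb3 rose in both lines, by 2.29 and 2.77 (edgeR adjusted p = 1.17e-04 and 1.53e-05), whereas Map2 fell by 1.80 in STHdhQ7 cells (adjusted p = 0.00868) and had 0.02 in STHdhQ111 cells, with an interaction that was called (1.81, adjusted p = 0.0496). Of 5 mesenchymal markers, 4 were tested, and the summed level was 4195 to 4761 and 3270 to 3679 TPM in STHdhQ7 cells, and 3459 to 3602 and 1474 to 1580 TPM in STHdhQ111 cells. Of these, Col1a1 (-1.45 and -1.49) and Col1a2 (-1.65 and -2.56) fell in both lines. Vim (-0.22 and -0.95) and Acta2 (0.13 and -0.37) were called in neither. The Vim value in STHdhQ111 cells had an edgeR adjusted p of 0.00403, under the 2-fold threshold. The sums hold members that differed between the nontreated lines in opposite directions, since in Q111-C vs. Q7-C Acta2 was lower (-5.59, edgeR adjusted p = 7.97e-07; 24.6 to 56.0 against 1605 to 1792 TPM) and Col1a2 (3.81, adjusted p = 1.26e-07) and Col1a1 (1.25, adjusted p = 5.33e-05) were higher. The 4 astrocyte markers summed to 0.299 to 0.614 and 0.484 to 0.862 TPM in STHdhQ7 cells, and to 0.087 to 0.255 and 1.54 to 2.24 TPM in STHdhQ111 cells, where Aldh1l1, the 1 that was tested, rose by 5.13 (edgeR adjusted p = 0.0116). Aldh1l1 reached 0.5 TPM in the Q111-T libraries and otherwise only in Q7-T replicate 2. It had 0, 0 and 20 counts in Q111-C, so its fold change is set against a level near 0. The part of these shifts in the results was not tested. Macrophage and microglia markers were near 0: of 6 listed, 3 had a row, none reached 0.5 TPM, Ptprc was at 0 in 11 of 12 libraries, and their summed level ran from 0.085 to 0.292 TPM without and 0.109 to 0.152 TPM with treatment in STHdhQ7 cells, and from 0.125 to 0.309 and 0.185 to 0.479 TPM in STHdhQ111 cells.

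**Figure D2:**
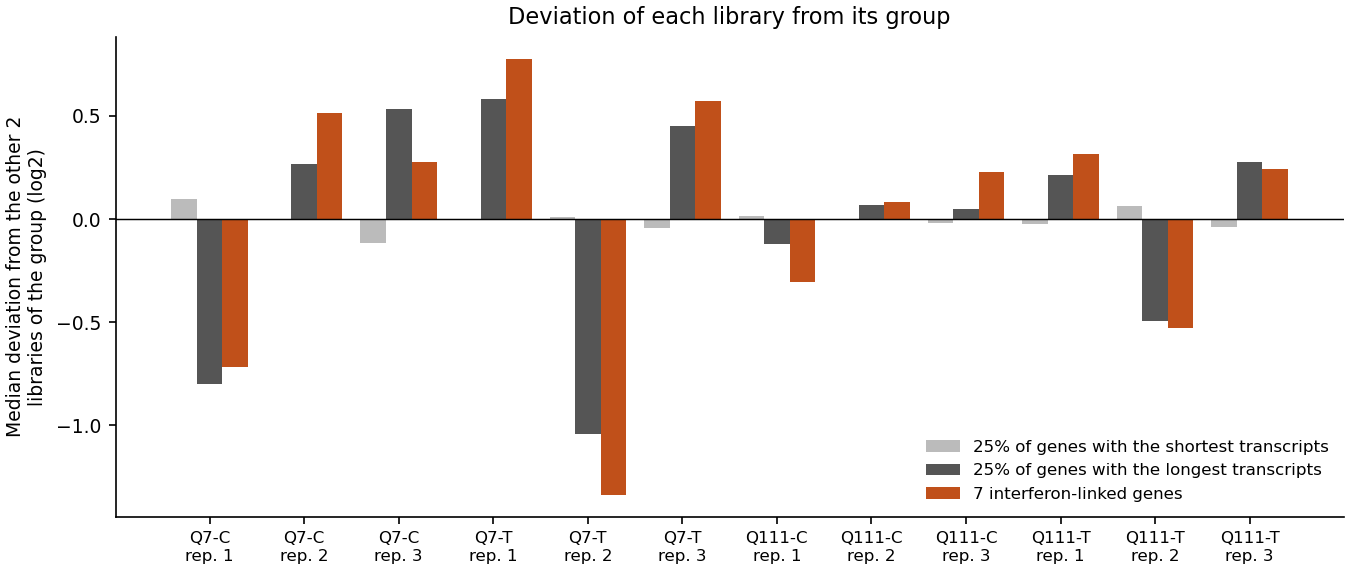
Median deviation of each library from the mean of the other 2 libraries of its group (y axis, log2 units), for the 25% of genes with the shortest and with the longest transcripts and for the 7 interferon-linked genes; the 12 libraries are on the x axis. In Q7-T replicate 2 the genes with the longest transcripts (-1.04) and the 7 genes (-1.34) lie low and those with the shortest (0.0084) do not.

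A gene was called changed at an adjusted p below 0.05 (edgeR quasi-likelihood test, Benjamini-Hochberg over all 16127 genes) where the level also changed by at least 2-fold. In treated STHdhQ7 cells, 6 of the 7 interferon-linked genes rose, against 2.93% of all genes tested, and the seventh, Zc3hav1, stayed under the 2-fold threshold. In treated STHdhQ111 cells all 7 rose, against 8.28% of all genes. The median log2 fold change of the 7 genes was 3.85 in STHdhQ7 and 3.40 in STHdhQ111 cells, whereas the median of all genes tested was 0.0033 and -0.0050. The treated libraries were all above the nontreated ones for 5 of the 7 genes in STHdhQ7 cells, against 5.55% of all genes, and for 7 of 7 in STHdhQ111 cells, against 19.8%. Of the DNA-repair PARPs, Parp3 rose in STHdhQ7 cells, and Parp1 was called in neither line. In these bulk samples, more cells expressing a gene and more RNA per cell cannot be told apart.

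Summed over the 7 interferon-linked genes, the level went from 28.4 ± 8.74 TPM without treatment to 230.4 ± 85.4 TPM with it in STHdhQ7 cells, and from 97.2 ± 12.8 to 859.5 ± 189.5 TPM in STHdhQ111 cells (mean ± SD, n = 3). TPM is a level per transcript length, scaled to the library, and can be compared between genes. Parp1 was at the highest level of the 9 genes in both nontreated groups, with 53.4 ± 15.7 TPM in Q7-C and 65.7 ± 2.51 in Q111-C. In both treated groups Parp10 took that place, with 69.7 ± 16.9 TPM in Q7-T and 215.0 ± 54.4 in Q111-T, and Parp1 was eighth of the 9 in Q111-T.

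**Figure D3:**
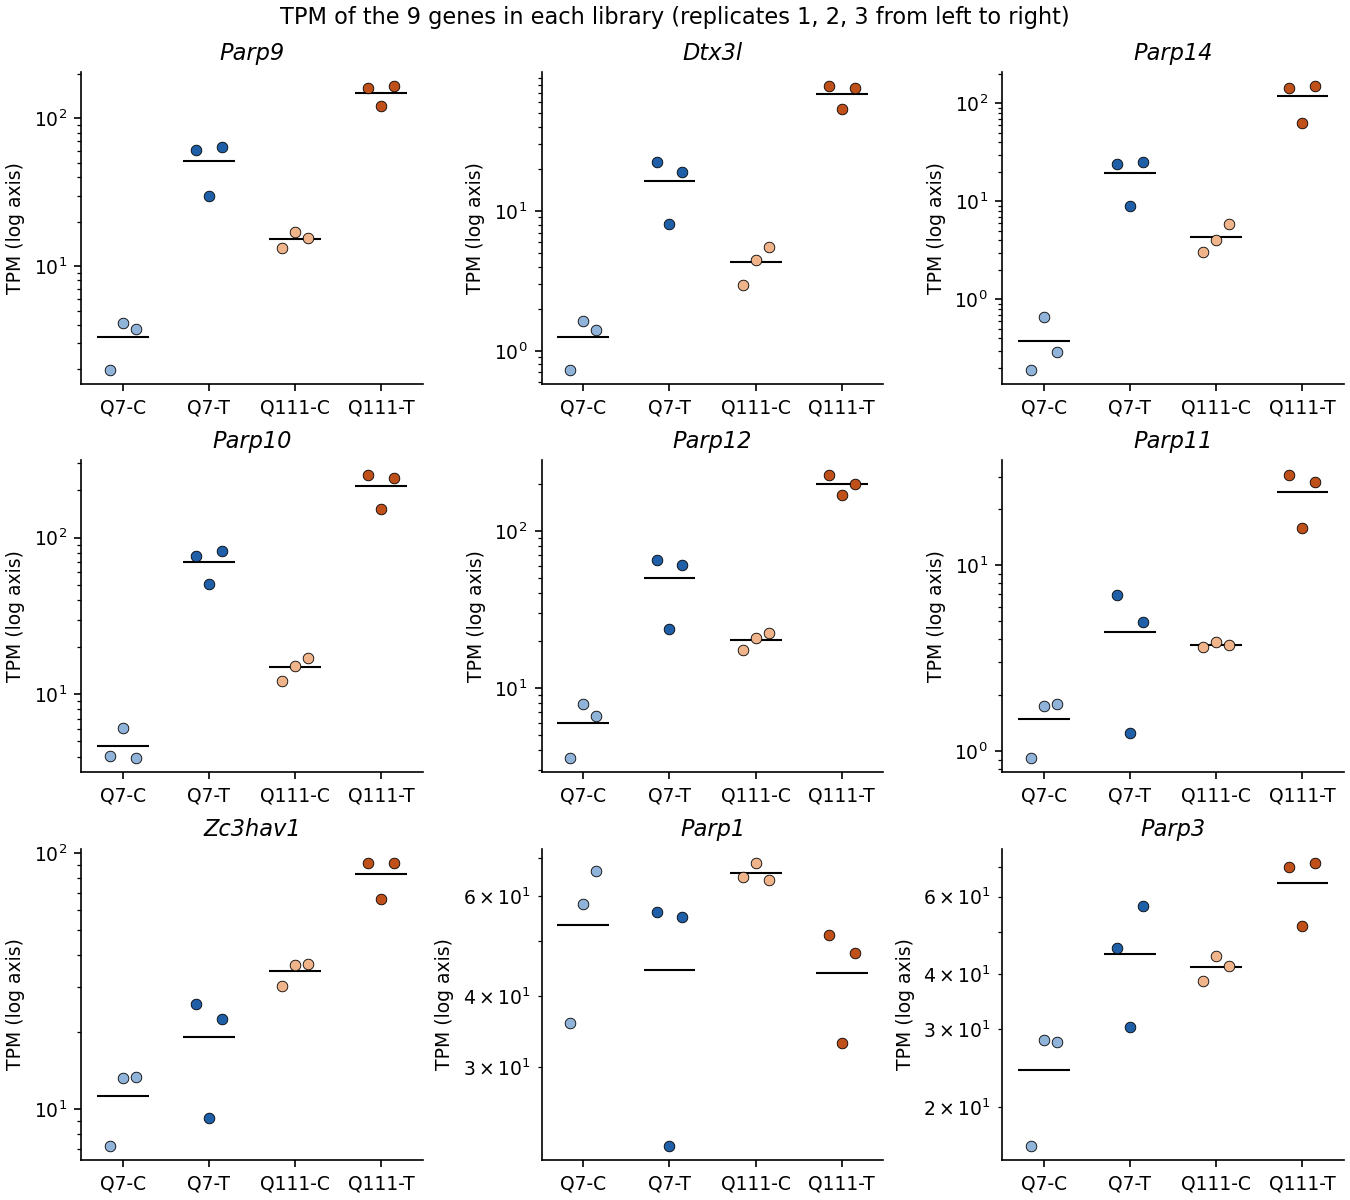
Level of each of the 9 genes in each library (y axis, TPM, log axis) by group (x axis); points are libraries in the order of replicates 1 to 3 and lines are group means. The 7 interferon-linked genes are highest in Q111-T in every panel, whereas Parp1 lies between 21.8 and 68.6 TPM over all groups.

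Parp9 and Dtx3l encode proteins that bind each other. Parp9 carries macrodomains that recognize ADP-ribose, and Dtx3l, of the Deltex family, is a ubiquitin ligase. Parp9 was at 1.99, 4.14 and 3.74 TPM in Q7-C replicates 1 to 3 and at 60.8, 30.0 and 63.7 TPM in Q7-T. In STHdhQ111 cells it was at 13.2, 16.9 and 15.5 TPM without treatment and at 161, 120 and 165 TPM with it. The 4 groups did not overlap, and each Q7-T library was above each Q111-C library. Parp9 rose by 4.14 ± 0.20 (log2 fold change ± SE) in STHdhQ7 cells (edgeR adjusted p = 2.07e-07) and by 3.38 ± 0.19 in STHdhQ111 cells (adjusted p = 4.06e-07).

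Dtx3l was at 0.733, 1.64 and 1.42 TPM in Q7-C and at 22.4, 8.07 and 19.0 TPM in Q7-T. Its level in STHdhQ111 cells was 2.98, 4.46 and 5.57 TPM without treatment and 78.0, 53.4 and 76.3 TPM with it. As for Parp9, no pair of groups overlapped. The log2 fold change of Dtx3l was 3.85 ± 0.29 in STHdhQ7 (edgeR adjusted p = 4.95e-06) and 4.09 ± 0.29 in STHdhQ111 cells (adjusted p = 2.17e-06).

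The ratio of Dtx3l to Parp9 within a library stayed between 0.226 and 0.486 over all 12 libraries, while the mean level of Parp9 rose 15.7-fold and 9.77-fold and that of Dtx3l 13.1-fold and 15.97-fold in the 2 lines. Its mean was 0.381 ± 0.013 without and 0.312 ± 0.051 with treatment in STHdhQ7 cells, against 0.283 ± 0.069 and 0.464 ± 0.021 in STHdhQ111 cells, so that the Q111-T libraries were above all others, and the Q7-T and Q111-C libraries overlapped. Because the genes share the starts printed above and overlap on opposite strands, reads from the shared 682 bases may have been split between them; the libraries were stranded, but whether the counting used strand is not given in the sources used here.

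Parp14, a transferase with macrodomains known as a cofactor of STAT6, had the lowest level of the 9 genes in Q7-C, at 0.192, 0.658 and 0.294 TPM from 70 to 227 estimated counts. It was at 24.2, 8.99 and 25.1 TPM in Q7-T, at 3.09, 4.02 and 5.85 TPM in Q111-C and at 144, 63.9 and 149 TPM in Q111-T. No groups overlapped. The log2 fold change was 5.81 ± 0.48 in STHdhQ7 (edgeR adjusted p = 1.12e-05) and 4.85 ± 0.45 in STHdhQ111 cells (adjusted p = 1.66e-05), the highest of the 9 genes in both lines. With limma on log2(TPM + 1) the STHdhQ7 value was 3.78, and that of Dtx3l was 2.86. The ratio of Parp14 to Parp9, its neighbour on chromosome 16, went from 0.111 ± 0.042 to 0.364 ± 0.056 with treatment in STHdhQ7 cells, and from 0.283 ± 0.082 to 0.779 ± 0.214 in STHdhQ111 cells. The treated libraries had the higher ratio in both lines, with ranges of 0.300 to 0.398 against 0.0786 to 0.159 in STHdhQ7 and of 0.531 to 0.908 against 0.234 to 0.377 in STHdhQ111 cells.

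Parp10 and Parp12 encode mono-ADP-ribosyltransferases, the latter with RNA-binding zinc fingers and known antiviral activity. Parp10 was at 4.01, 6.13 and 3.93 TPM in Q7-C, at 75.8, 50.6 and 82.6 in Q7-T, at 12.1, 15.2 and 17.2 in Q111-C and at 253, 153 and 240 TPM in Q111-T. Its groups did not overlap, and its response was of similar size in the 2 lines, with log2 fold changes of 4.06 ± 0.22 (edgeR adjusted p = 5.06e-07) and 3.94 ± 0.22 (adjusted p = 4.07e-07). Parp10 overlaps Plec on the same strand by 1401 bases, within 1 Parp10 transcript annotated as nonsense-mediated decay and outside both protein-coding ones. On the same strand Parp11 also overlaps Gm43633 by 2330 bases and Parp14 overlaps Gm49730 by 1773 bases, and reads in these stretches are of uncertain origin.

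Parp12 was at 3.57, 7.85 and 6.56 TPM in Q7-C, at 65.3, 23.7 and 60.4 in Q7-T, at 17.3, 20.9 and 22.3 in Q111-C and at 229, 169 and 200.2 TPM in Q111-T. The groups did not overlap, although Q7-T replicate 2 was close to the Q111-C libraries. The log2 fold change was 3.20 ± 0.23 in STHdhQ7 (edgeR adjusted p = 4.47e-06) and 3.40 ± 0.24 in STHdhQ111 cells (adjusted p = 1.91e-06).

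Parp11, a mono-ADP-ribosyltransferase known at the nuclear pore, differed from these genes in STHdhQ7 cells. It was at 0.921, 1.76 and 1.80 TPM in Q7-C and at 6.94, 1.26 and 4.96 TPM in Q7-T, where replicate 2 fell within the nontreated range. In Q111-C it was at 3.64, 3.87 and 3.71 TPM and in Q111-T at 30.7, 15.8 and 28.1 TPM, with no overlap. The log2 fold change was 1.63 ± 0.35 in STHdhQ7 cells (edgeR adjusted p = 0.0189) and 2.81 ± 0.37 in STHdhQ111 cells (adjusted p = 2.32e-04). The call in STHdhQ7 cells did not hold in 9 of the 24 alternatives, among them limma on log2(TPM + 0.5) (adjusted p = 0.322) and the fit without Q7-C replicate 1 (1.49, adjusted p = 0.0712), whereas without Q7-T replicate 2 the log2 fold change was 1.99 (adjusted p = 2.06e-04), and without the 3 libraries low in long transcripts it was 1.81 (adjusted p = 1.56e-05). The deposited level is 1 value per gene, so it was not split between the 10 annotated transcripts of Parp11, which begin at several places; 1 of its 2 RefSeq windows has the motif match printed above.

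Zc3hav1 encodes ZAP, also called PARP13, a family member without transferase activity that binds CpG-rich viral RNA. It was the highest of the 7 interferon-linked genes without treatment, at 7.18, 13.3 and 13.3 TPM in Q7-C and 30.4, 36.6 and 36.9 TPM in Q111-C. With treatment it was at 25.7, 9.21 and 22.5 TPM in Q7-T, where replicate 2 again lay within the nontreated range, and at 92.0, 66.2 and 91.4 TPM in Q111-T. Zc3hav1 rose in STHdhQ111 cells by 1.35 ± 0.20 on the log2 scale (edgeR adjusted p = 5.10e-04). In STHdhQ7 cells the value was 0.90 ± 0.20 (adjusted p = 0.0187), short of the 2-fold threshold, and without Q7-T replicate 2 it was 1.10 (adjusted p = 0.00102), which was called, and without the 3 libraries low in long transcripts it was 0.94 (adjusted p = 1.16e-04), which was not. It was the only one of the 7 genes whose mean was lower in Q7-T than in Q111-C, 19.1 ± 8.74 against 34.6 ± 3.71 TPM, and those libraries did not overlap.

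Of the DNA-repair PARPs, Parp1 was not called with treatment in either line and Parp3 rose in STHdhQ7 cells. Parp1, which detects DNA breaks, was at 35.9, 58.1 and 66.2 TPM in Q7-C, at 56.2, 21.8 and 55.1 in Q7-T, at 64.7, 68.6 and 63.9 in Q111-C and at 51.2, 33.0 and 47.6 TPM in Q111-T. The log2 fold change was -0.13 ± 0.19 in STHdhQ7 (edgeR adjusted p = 0.816) and -0.50 ± 0.19 in STHdhQ111 cells (adjusted p = 0.0927), where all treated libraries were below all nontreated ones. Without Q7-T replicate 2 the latter value was -0.50 (adjusted p = 0.0162), still under the 2-fold threshold. Neighbouring groups overlapped throughout its order of levels. Parp3, which acts at double-strand breaks, was at 16.3, 28.4 and 28.0 TPM in Q7-C, at 45.9, 30.3 and 57.2 in Q7-T, at 38.7, 44.1 and 41.8 in Q111-C and at 69.9, 51.5 and 71.6 TPM in Q111-T. It rose by 1.07 ± 0.15 in STHdhQ7 cells (adjusted p = 8.13e-04), and its value in STHdhQ111 cells, 0.72 ± 0.15 (adjusted p = 0.00477), was under the 2-fold threshold. The Parp3 call in STHdhQ7 cells rests on a value near that threshold: it was 0.97 without Q7-C replicate 1, 0.95 without Q7-T replicate 3 and 0.96 without the 3 libraries low in long transcripts. It was also lost with limma at each of 3 pseudocounts (0.84 to 0.87, adjusted p = 0.126 to 0.130). Parp3 overlaps Rrp9 by 987 bases on opposite strands, so its reads there are uncertain too.

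**Figure D4:**
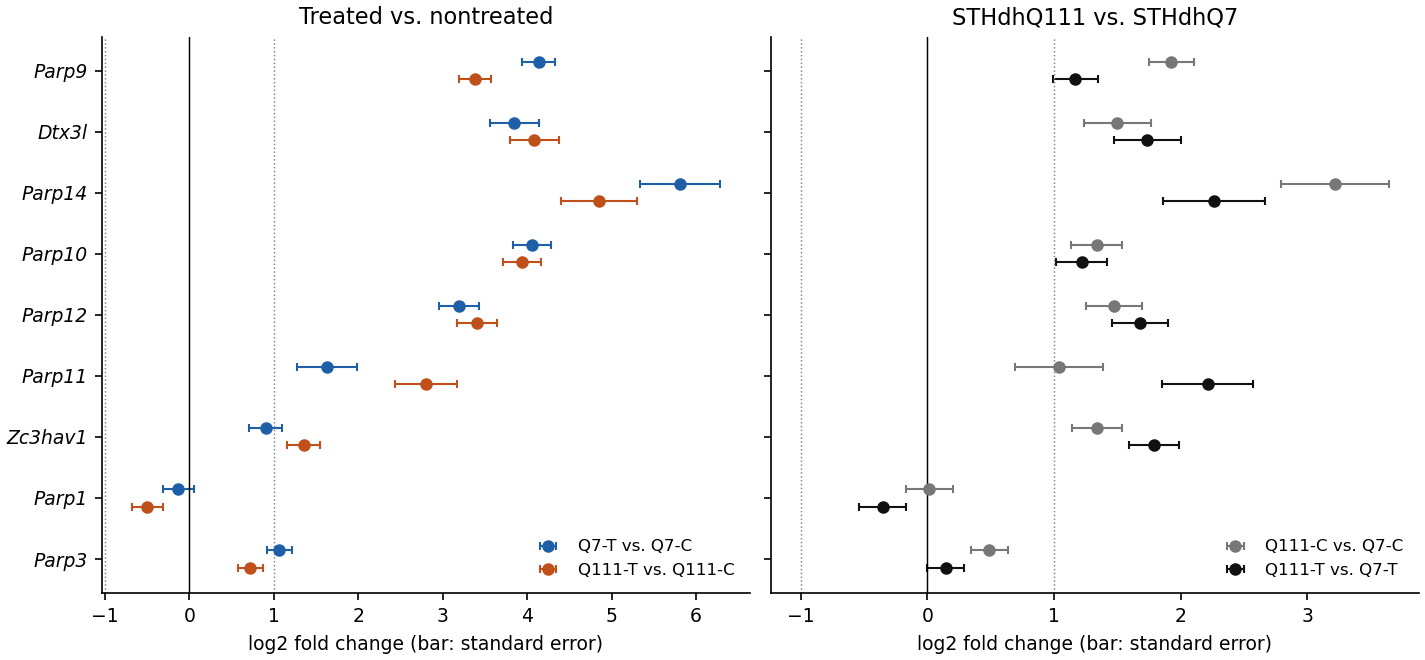
Log2 fold changes (x axis) of the 9 genes (y axis), treated vs. nontreated on the left and STHdhQ111 vs. STHdhQ7 on the right; points are edgeR estimates, bars are standard errors and dotted lines mark a 2-fold change. The 7 interferon-linked genes lie right of 0 in all 4 comparisons, from 0.90 to 5.81 with treatment and from 1.04 to 3.22 between lines, and Parp1 lies between -0.50 and 0.02.

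Without treatment, 6 of the 7 interferon-linked genes were called higher in STHdhQ111 than in STHdhQ7 cells, against 7.62% of all genes tested, with a median log2 fold change of 1.47 against -0.020 over all genes. The difference was 3.22 ± 0.43 for Parp14 (edgeR adjusted p = 2.00e-04), with 3.82 without Q7-C replicate 2 and 1.93 with limma on log2(TPM + 1), which understates changes of low genes. It was 1.93 ± 0.18 for Parp9 (adjusted p = 1.55e-05), 1.50 ± 0.26 for Dtx3l (adjusted p = 0.00147) and 1.47 ± 0.22 for Parp12 (adjusted p = 4.98e-04). For Zc3hav1 it was 1.34 ± 0.20 (adjusted p = 4.41e-04) and for Parp10 1.34 ± 0.20 (adjusted p = 5.38e-04). Parp11 had 1.04 ± 0.35 (adjusted p = 0.0525) and was not called, although it was called under 8 of its 24 alternatives, among them DESeq2 (adjusted p = 0.0148) and the fit without Q7-T replicate 2 (adjusted p = 0.00256). Its value was under the 2-fold threshold without Q7-C replicate 1 (0.900) and without the 3 libraries low in long transcripts (0.897). All Q111-C libraries were above all Q7-C libraries for 7 of the 7 genes, but this held for 38.8% of all genes. On the TPM scale the median gene was itself higher in Q111-C by 0.27 (log2), a shift that the scaling of the edgeR fit removes. Parp1 was at 0.02 ± 0.19 (adjusted p = 0.969) and Parp3 at 0.49 ± 0.15 (adjusted p = 0.0318), under the 2-fold threshold.

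With treatment, all 7 interferon-linked genes were called higher in STHdhQ111 cells, against 13.3% of all genes, and their median log2 fold change was 1.74, against -0.029 over all genes. The values ran from 1.17 ± 0.18 for Parp9 (edgeR adjusted p = 3.65e-04) to 2.27 ± 0.40 for Parp14 (adjusted p = 0.00111), with 2.22 ± 0.36 for Parp11 (adjusted p = 6.12e-04) and 1.79 ± 0.20 for Zc3hav1 (adjusted p = 4.44e-05). All Q111-T libraries were above all Q7-T libraries for 7 of 7 genes, against 33.9% of all genes. Parp1, at -0.35 ± 0.19 (adjusted p = 0.157), and Parp3, at 0.14 ± 0.15 (adjusted p = 0.456), were not called, and the sign of the Parp1 value depended on the scale, since limma on TPM values, whose median gene was 0.34 higher in Q111-T, gave up to 0.08. The comparisons between lines use the same libraries as those of treatment.

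Whether the response itself differed between lines was tested as an interaction, the log2 fold change in STHdhQ111 cells minus that in STHdhQ7 cells. None of the 9 genes was called, against 3.52% of all genes called higher and 1.20% called lower. At an unadjusted p below 0.05 there were 2 in the edgeR fit, Parp9 and Parp11; DESeq2 called none, with Parp9 at -0.77 (adjusted p = 0.0272) under the 2-fold threshold, and limma called none. The interaction was -0.76 ± 0.25 for Parp9 (edgeR adjusted p = 0.104) and 1.17 ± 0.49 for Parp11 (adjusted p = 0.207). It was -0.96 ± 0.55 for Parp14 (adjusted p = 0.370) and turned to 0.66 with limma on log2(TPM + 1), a scale that compresses low levels. The smallest values were -0.12 ± 0.28 for Parp10, 0.21 ± 0.31 for Parp12 and 0.24 ± 0.36 for Dtx3l. For Zc3hav1 it was 0.45 ± 0.27, for Parp1 -0.37 ± 0.26 and for Parp3 -0.35 ± 0.21. Leaving out the 3 libraries low in long transcripts together, a choice made after seeing the data, Parp11 was called (1.19, adjusted p = 0.00136), and Parp9 (-0.61, adjusted p = 0.0146) and Zc3hav1 (0.50, adjusted p = 0.0157) had an adjusted p below 0.05 under the 2-fold threshold.

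Differences in TPM are given beside the ratios because the nontreated levels differ between lines; the gains were not tested against each other. The gain in mean TPM with treatment was 48.2 ± 18.7 in STHdhQ7 and 133.3 ± 24.6 in STHdhQ111 cells for Parp9 (SD from both groups, n = 3 per group). It was 65.0 ± 16.9 and 200.1 ± 54.4 for Parp10, 43.8 ± 22.8 and 179 ± 29.9 for Parp12, and 15.2 ± 7.49 and 64.9 ± 13.8 for Dtx3l. For Parp14 the gains were 19.1 ± 9.07 and 115 ± 47.9 TPM. In STHdhQ7 cells the gains of Parp11, 2.89 ± 2.93 TPM, and Zc3hav1, 7.88 ± 9.42 TPM, were within their spread, against 21.1 ± 7.95 and 48.6 ± 15.2 TPM in STHdhQ111 cells. That spread is an SD of single libraries and not the error of a mean gain. The edgeR adjusted p in STHdhQ7 cells was 0.0189 for Parp11 and 0.0187 for Zc3hav1. Parp3 gained 20.2 ± 15.2 and 22.8 ± 11.5 TPM, which differ by less than their spread. Parp1 had a difference of -9.03 ± 25.1 TPM in STHdhQ7 cells, within its spread, and of -21.8 ± 9.94 TPM in STHdhQ111 cells.

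The order of the groups by mean level was Q7-C, Q111-C, Q7-T and Q111-T for Parp9, Parp10, Parp11, Parp12, Parp14 and Dtx3l, and also for Parp3. For 5 of these interferon-linked genes no neighbours in the order overlapped, against 0.496% of all genes; for Parp11 the Q111-C and Q7-T libraries did. For Parp3 Q111-C overlapped Q7-T, and Q7-T overlapped Q111-T. The order of Zc3hav1 was Q7-C, Q7-T, Q111-C and Q111-T, of which the first pair overlapped.

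Likeness of pattern was measured over the 12 libraries as the root mean square difference of log2(TPM + 0.5) after centring each gene, with values that share libraries and depth. Among the 9 genes, the closest pair was Parp12 and Dtx3l, at 0.273, each being the gene nearest to the other of all 16127. Parp9 and Parp10 followed at 0.312, and Parp1 was farthest from Parp14, at 2.75. Outside the 9 genes, Parp9 was closest to Trim21 (0.215) and Irf1 (0.315), Parp10 to Uba7 (0.175) and H2-K1 (0.281), and Parp12 to C1ra (0.347) and Nfkbiz (0.353). Parp14 was closest to C3 (0.248) and Mmp3 (0.373), Dtx3l, again outside the 9 genes, to Apol10b (0.282) and Trim21 (0.349), and Parp11 to Trafd1 (0.311) and Tlr3 (0.326). The genes closest to Zc3hav1 were Ell2 (0.160) and Txnip (0.187). Parp1 was closest to Ncbp1 (0.0823) and Smo (0.0853), and Parp3 to Rnf31 (0.145) and Slc12a7 (0.198).

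The wider family was described from further lists, whose counts are to be read against all genes tested, of which 2.93% in STHdhQ7 and 8.28% in STHdhQ111 cells were called higher with treatment and 1.11% and 2.96% lower. Of 8 other PARP genes, all tested, 1 rose in STHdhQ7 cells and 2 in STHdhQ111 cells, with list medians of -0.0068 and 0.42 on the log2 scale. Parp8, a mono-ADP-ribosyltransferase, was at 1.58 to 3.42 TPM without and 2.52 to 6.85 TPM with treatment in STHdhQ7 cells, and at 6.93 to 9.17 and 13.8 to 22.8 TPM in STHdhQ111 cells. It rose by 1.14 ± 0.24 in STHdhQ7 (edgeR adjusted p = 0.0139), where the groups overlapped and limma on log2(TPM + 0.5) did not call it (adjusted p = 0.353), nor did the fit without Q7-C replicate 1 (0.98, adjusted p = 0.0474, under the 2-fold threshold), and by 1.36 ± 0.24 in STHdhQ111 cells (adjusted p = 0.00178), a call that was lost with limma on log2(TPM + 0.1) (1.25, adjusted p = 0.0595). Tiparp, also known as Parp7 and a target of the aryl hydrocarbon receptor, was at 20.0 to 22.5 TPM in Q111-C and 45.3 to 49.4 TPM in Q111-T, a rise of 1.26 ± 0.25 (adjusted p = 0.00400) that limma at 3 pseudocounts did not call (1.12 to 1.15, adjusted p = 0.0790 to 0.0924). In STHdhQ7 cells its value was 0.07 ± 0.25 (adjusted p = 0.943), and the interaction of 1.19 ± 0.35 was not called (adjusted p = 0.0733), although it was called by DESeq2 (adjusted p = 0.0144), without Q7-C replicate 1 (1.36, adjusted p = 0.0385) and without the 3 libraries low in long transcripts (1.09, adjusted p = 1.17e-04). Parp2, the closest relative of Parp1 in DNA repair, had -0.08 in STHdhQ7 and 0.13 in STHdhQ111 cells, and the tankyrase Tnks -0.34 and 0.19, none of them called.

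Of 7 listed enzymes that remove ADP-ribose, 6 were tested and none was called with treatment in either line, a count near the shares of 2.93% and 8.28% called higher over all genes, with medians of 0.16 and 0.28. Parg, which cuts poly(ADP-ribose) chains, had -0.34 ± 0.37 in STHdhQ7 (edgeR adjusted p = 0.748) and 0.47 ± 0.37 in STHdhQ111 cells (adjusted p = 0.464). At an unadjusted p below 0.05 there was 1 gene in each line with edgeR, Macrod1 in STHdhQ7 (1.23 ± 0.52, with 49.8 TPM in Q7-T replicate 2 against 17.2 and 21.2 TPM in the other two and 13.0 to 20.1 TPM in Q7-C) and Gdap2 in STHdhQ111 cells (0.40 ± 0.17), and neither DESeq2 nor limma called any of the 6.

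The enzymes that make or use NAD+, the substrate of the PARPs, had 2 genes that rose in each line, of 9 tested out of 10 listed and against 2.93% and 8.28% of all genes, with medians of 0.16 and 0.33. Nampt, the rate-limiting enzyme of NAD+ salvage, was at 11.5, 22.1 and 24.2 TPM in Q7-C, at 80.2, 27.7 and 63.9 in Q7-T, at 22.0, 25.2 and 27.2 in Q111-C and at 145, 137 and 152 TPM in Q111-T. Its treated libraries were above its nontreated ones in both lines, and the log2 fold change was 1.72 ± 0.21 (edgeR adjusted p = 3.57e-04) and 2.65 ± 0.22 (adjusted p = 6.98e-06). Bst1, a relative of Cd38 that consumes NAD+, rose from 0.413 ± 0.148 to 3.26 ± 0.606 TPM in STHdhQ7 cells (3.16 ± 0.56, adjusted p = 0.00481) and from 0.227 ± 0.166 to 0.919 ± 0.571 TPM in STHdhQ111 cells (2.02 ± 0.54, adjusted p = 0.0226). The latter call was lost without Q111-T replicate 3 (1.44, adjusted p = 0.109), without Q111-C replicate 1 (1.92, adjusted p = 0.0901) and without Q111-C replicate 3 (1.58, adjusted p = 0.0636).

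Of 4 genes known to act with or resemble ZAP, 1 rose in STHdhQ7 cells, and in STHdhQ111 cells 2 rose and 1 fell, against 2.93% of all genes called higher in STHdhQ7 cells and 8.28% higher and 2.96% lower in STHdhQ111 cells. Trim25, a ubiquitin ligase needed for ZAP activity, was at 0.873, 1.28 and 1.16 TPM in Q7-C and 3.74, 1.73 and 3.72 TPM in Q7-T. In STHdhQ111 cells it was at 9.60, 13.8 and 13.1 TPM without and 37.6, 21.6 and 34.5 TPM with treatment, so that its nontreated level there was above the treated level in STHdhQ7 cells. Trim25 rose by 1.61 ± 0.20 (edgeR adjusted p = 3.07e-04) and 1.44 ± 0.19 (adjusted p = 2.67e-04), and was higher in the nontreated STHdhQ111 line than in nontreated STHdhQ7 cells by 3.15 ± 0.21 (adjusted p = 1.08e-06). In STHdhQ7 cells limma on log2(TPM + 0.5) did not call the rise (1.10, adjusted p = 0.0750). N4bp1, an antiviral endoribonuclease related to the ZAP cofactor Khnyn, was at 7.33, 11.2 and 12.3 TPM in Q7-C and at 12.9, 5.01 and 13.3 TPM in Q7-T, which overlapped. In STHdhQ111 cells it was at 12.1, 13.3 and 12.5 TPM without and at 36.5, 30.6 and 38.3 TPM with treatment. It rose in STHdhQ111 cells by 1.58 ± 0.18 (adjusted p = 7.19e-05) and had 0.15 ± 0.17 in STHdhQ7 cells (adjusted p = 0.769). The interaction was called (1.43 ± 0.24, edgeR adjusted p = 0.00625), against 3.52% of all genes called higher there. With limma at 3 pseudocounts the interaction was not called (1.46 to 1.54, adjusted p = 0.0765 to 0.113). Khnyn itself had log2 fold changes of 0.17 in STHdhQ7 and 0.12 in STHdhQ111 cells. Zc3hav1l, a paralog of Zc3hav1, fell by 1.19 ± 0.36 in STHdhQ111 cells (adjusted p = 0.0409), a call that was lost in 13 of its 24 alternatives.

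The Deltex relatives of Dtx3l, with 3 of 4 tested, were not called with treatment in either line, and Dtx2 had 0.06 and -0.26 and Dtx3 0.24 and -0.0015 on the log2 scale in STHdhQ7 and STHdhQ111 cells. At an unadjusted p below 0.05 there was none in STHdhQ7 and 1 in STHdhQ111 cells, Dtx4 (-0.59 ± 0.19, edgeR adjusted p = 0.0544), and neither DESeq2 nor limma called any. None of 7 break-repair partners of Parp1 and Parp3 was called with treatment, against 1.11% and 2.96% of all genes called lower and 2.93% and 8.28% higher, with medians of -0.10 and -0.33, and neither DESeq2 nor limma called any. No partner in STHdhQ7 cells had an unadjusted p below 0.05. At an adjusted p below 0.05, but under the 2-fold threshold, 3 of them were lower in STHdhQ111 cells, against 4.37% of all genes, Lig3 (-0.71 ± 0.22, edgeR adjusted p = 0.0404), Xrcc5 (-0.67 ± 0.14, edgeR adjusted p = 0.00583) and Xrcc6 (-0.74 ± 0.17, adjusted p = 0.00911), the latter pair being the subunits of Ku, which binds broken DNA ends. Xrcc4 (0.40 ± 0.19, adjusted p = 0.181) and Xrcc1 (0.20 ± 0.17) had positive values and were not called.

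**Figure D5:**
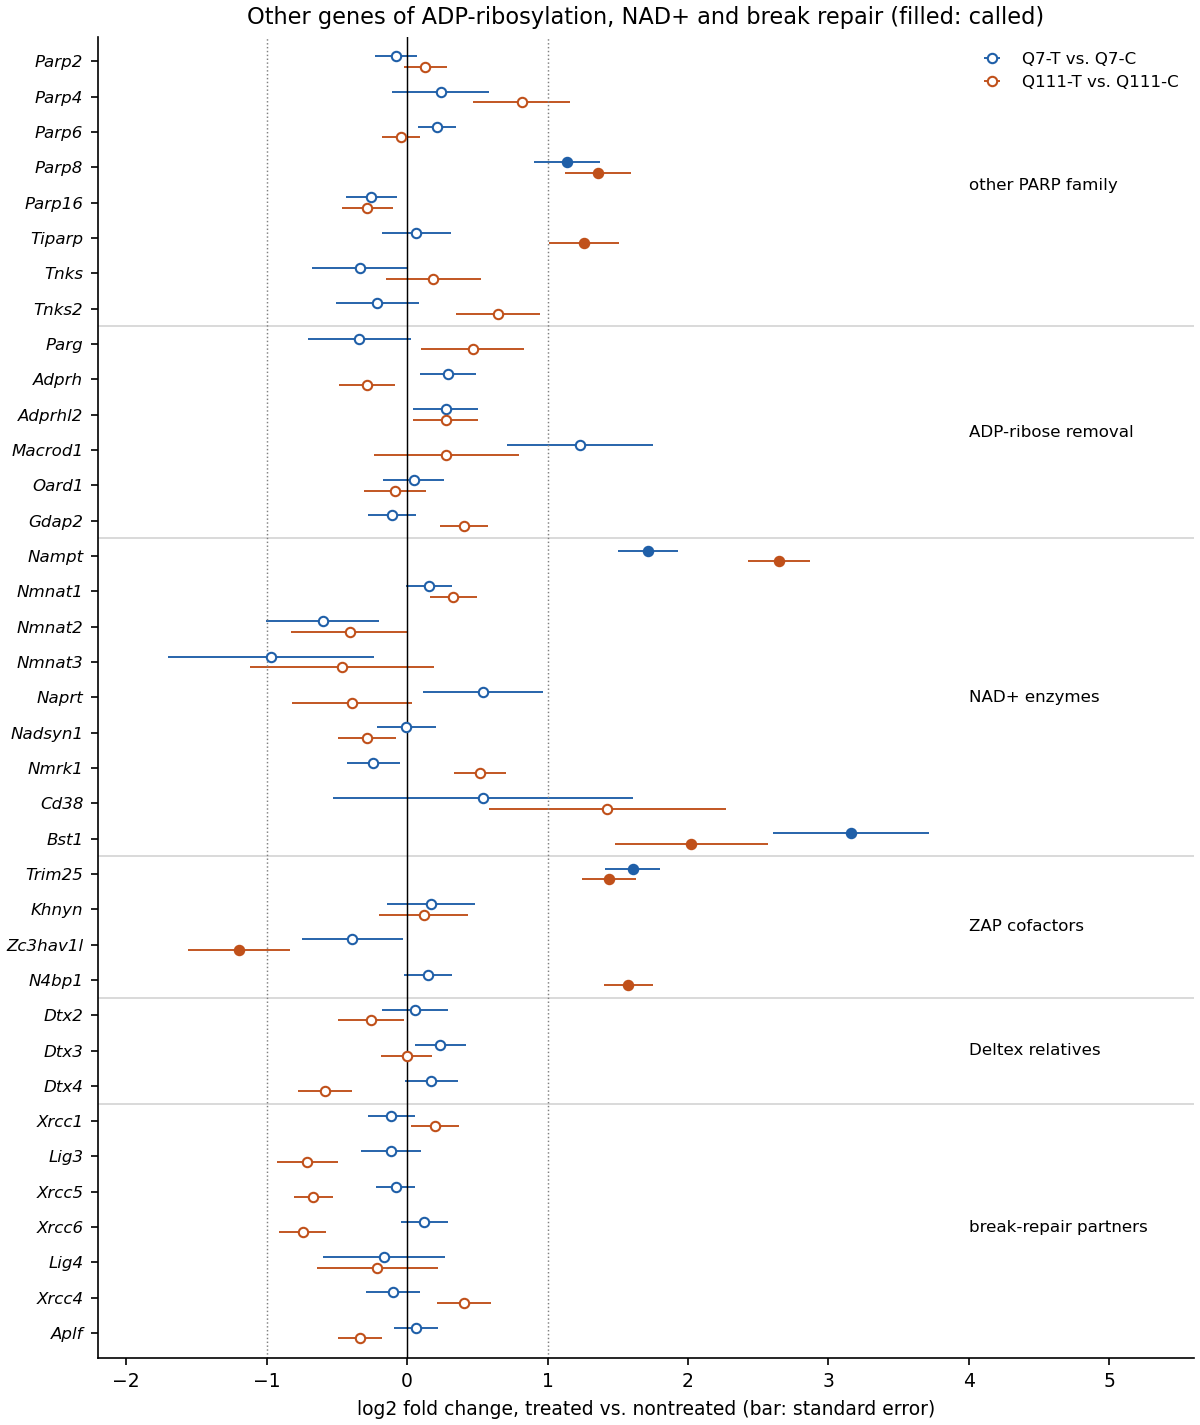
Log2 fold changes with treatment (x axis) of the tested genes of 6 further lists (y axis) in STHdhQ7 and STHdhQ111 cells; bars are standard errors, filled points were called and dotted lines mark a 2-fold change. Filled points are Parp8, Nampt, Bst1 and Trim25 in both lines, and Tiparp, N4bp1 and Zc3hav1l in STHdhQ111 cells.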

How the data were processed

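According to the study's methods, poly(A) RNA was made into stranded, paired-end libraries, and the authors trimmed reads with Cutadapt, aligned them with HISAT2 to GRCm38 and estimated expression with StringTie. The deposited table holds, for each gene, TPM levels from the authors and their whole-number estimated counts, which are not normalized. In every library, low counts that are multiples of 4 were 1.22 to 1.52 times as frequent as the even numbers beside them, so a count may be more than 1 read, and dividing by 4 was an alternative.

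Libraries were grouped by their labels. The 9 genes and all lists were chosen with earlier results of these data known. Genes that reached 0.5 TPM in 3 or more libraries entered 1 edgeR 4.0.16 quasi-likelihood fit of all 12 libraries (TMM scaling, rounded estimated counts), with Benjamini-Hochberg adjustment over 16127 genes. Standard errors were derived from the F statistics. The fit was tested on simulated data. Alternatives were DESeq2 1.42.0, limma 3.58.1 on log2(TPM + pseudocount), other scalings and filters, a replicate block, and each library left out. Genes were named if they were among the 9, if a gene of the 6 further lists was called in either treatment comparison or the interaction, or as up to 2 uncalled examples per list; marker genes, Macrod1, Gdap2, Dtx4, Lig3, Xrcc1 and Xrcc4 were named after their values were seen.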

Additional observations from a re-analysis of the deposited data

Results flagged for a closer look

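The difference between the treatment responses of the lines was called for N4bp1, of the genes related to ZAP, with an interaction of 1.43 on the log2 scale (edgeR adjusted p = 0.00625): each Q111-T library was above each Q111-C library, whereas the Q7-T and Q7-C libraries overlapped. The value was 1.35 (adjusted p = 5.01e-05) without the 3 libraries low in long transcripts, and limma on log2(TPM + 0.5) gave 1.50 (adjusted p = 0.0902).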

How the results depend on the processing

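The number of the 9 genes called was 7 in every alternative run for Q111-T vs. Q111-C and for Q111-T vs. Q7-T, and 6 or 7 for Q111-C vs. Q7-C. For Q7-T vs. Q7-C it lay between 5 and 8 against 7, with 5 under limma, 5 without Q7-C replicate 1 or Q7-T replicate 3, 8 without Q7-T replicate 2 and 6 without the 3 libraries low in long transcripts, a set chosen after seeing the data. For the interaction it was 0 except when the 3 libraries low in long transcripts were left out together, where it was 1 (Parp11). The calls of Parp11 and Parp3 in STHdhQ7 cells and of Parp11 between the nontreated lines were those that depended on the setting, as did Zc3hav1 in STHdhQ7 cells; the cause was not tested. None of the 9 genes reversed a called direction. Of the uncalled interactions, Parp10 turned from -0.12 to 0.12 and Parp14 from -0.96 to 0.66 with limma on log2(TPM + 1).

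Whether replicate numbers pair the samples could not be told: of 18 correlations between same-numbered libraries' deviations, 7 were over 0.1 (range -0.58 to 0.45). These deviations also hold the shifts of the libraries low in long transcripts. With a replicate block, 7 of the 9 genes were called in Q7-T vs. Q7-C, as without it, and among listed genes the block ended the STHdhQ111 calls of Bst1 (2.03, edgeR adjusted p = 0.0519) and Zc3hav1l (-1.19, adjusted p = 0.0747). The interaction could not be fitted with only the groups compared. Of the listed genes, N4bp1's interaction was not called by limma (1.46 to 1.54 over 3 pseudocounts). Depth limits Parp14 in Q7-C, where 70 to 227 counts stand behind each value.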
